A study of Homo sapiens with 6 samples.

Results

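Albumin and plasma carrier proteins, described here from their transcripts, are the abundant secreted products of hepatocytes. The 10 genes considered were ALB, AFM, GC, TTR, RBP4, AHSG, AMBP, VTN, ITIH1 and ITIH2, and they were listed by name. On the array, 8 of the 10 were paired with probe sets of their own, of 19775 genes so represented. These 8 genes had 14 probe sets (ALB 4, AHSG 2, AMBP 2, RBP4 2, and 1 each for AFM, TTR, ITIH1 and ITIH2). A further 2 probe sets were annotated to VTN together with SEBOX, a neighbouring homeobox gene, and are given below without being assigned to either. GC was not analysed here.

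RNA came from Hep3B, an established human hepatocellular carcinoma line, carrying a stable lentiviral tough decoy (TuD), an RNA whose exposed sites hold a microRNA away from its targets. The miR-17 TuD group (3 arrays) carried a decoy of the miR-17 family, and the NC TuD group (3 arrays) carried the control decoy. Both lines went through infection with polybrene and puromycin selection, and each was made by pooling the resistant colonies, so each group rests on 1 pooled line. The labels do not say that the arrays of a group came from separate cultures, and p-values then measure only the spread between these arrays, which may be technical. A second label code reads PLUSDOX in all 3 miR-17 TuD arrays and NODOX in all 3 NC TuD arrays, so whatever it stands for cannot be told apart from the decoy.

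Serum albumin, the main protein of plasma, holds osmotic pressure and carries fatty acids, bilirubin and drugs. Afamin and the vitamin D-binding protein encoded by GC belong to the same gene family, as does alpha-fetoprotein. Transthyretin carries thyroxine and, through retinol-binding protein, retinol. Fetuin-A (AHSG) keeps calcium phosphate in solution. Vitronectin (VTN) binds cells and the extracellular matrix. AMBP encodes a precursor that is cut into alpha-1-microglobulin and bikunin, and bikunin is joined to the heavy chains encoded by ITIH1 and ITIH2 to form inter-alpha-inhibitors, which hand their heavy chains to hyaluronan.

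The decoy is directed at microRNAs that share a seed, the stretch by which a microRNA pairs with its targets. The mature sequences of 6 members of the family, from RefSeq on GRCh38.p14, are shown with the seed (bases 2 to 8) in capitals. They identify what the decoy is directed at, and their inhibition was not tested here.
hsa-miR-17-5p: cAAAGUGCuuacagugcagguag
hsa-miR-20a-5p: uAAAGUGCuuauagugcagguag
hsa-miR-20b-5p: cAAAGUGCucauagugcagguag
hsa-miR-93-5p: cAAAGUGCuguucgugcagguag
hsa-miR-106a-5p: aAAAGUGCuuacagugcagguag
hsa-miR-106b-5p: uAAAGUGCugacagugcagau
All 6 carry the same seed, AAAGUGC.

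Promoter windows are shown for ALB, AHSG and AFM. ALB fell on some but not all of its probe sets, and AHSG on both of its own. The AFM probe set stayed at the bottom of the scale. Each window holds the 250 bases before the RefSeq start on the plus strand of GRCh38.p14. Capitals mark matches, on either strand, to GTTAATNAT (part of the sequence bound by HNF1 factors), TTGCNNAA (bound by C/EBP factors) and TGTTTGC (bound by FOXA factors).
ALB, chr4:73404037-73404286: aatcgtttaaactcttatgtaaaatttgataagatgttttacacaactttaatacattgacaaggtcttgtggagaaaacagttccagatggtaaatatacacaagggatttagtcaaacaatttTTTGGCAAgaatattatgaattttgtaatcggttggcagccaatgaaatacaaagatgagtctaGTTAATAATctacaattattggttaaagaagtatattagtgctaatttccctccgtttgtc
AHSG, chr3:186612810-186613059: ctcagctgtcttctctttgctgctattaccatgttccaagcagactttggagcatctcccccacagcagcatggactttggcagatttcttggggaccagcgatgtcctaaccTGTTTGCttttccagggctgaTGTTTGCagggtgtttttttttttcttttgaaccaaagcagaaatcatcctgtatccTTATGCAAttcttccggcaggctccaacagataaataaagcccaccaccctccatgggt
AFM, chr4:73481495-73481744: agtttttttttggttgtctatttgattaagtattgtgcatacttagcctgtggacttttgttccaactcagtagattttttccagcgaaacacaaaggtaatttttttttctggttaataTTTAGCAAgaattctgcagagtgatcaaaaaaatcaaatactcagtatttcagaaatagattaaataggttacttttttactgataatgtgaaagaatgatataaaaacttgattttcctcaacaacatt
The ALB window held GTTAATNAT at 61 to 53 bases before the start and TTGCNNAA on the opposite strand at 125 to 118 bases. The AHSG window held TGTTTGC at 2 places and TTGCNNAA once, and the AFM window held TTGCNNAA once. Windows were found for 7 of the 10 genes, 11 windows in all, and a gene counted as matched if any of its windows matched. So counted, GTTAATNAT matched in 1 gene, TTGCNNAA in 5 and TGTTTGC in 3. The shares that follow are per window, so they are not like for like with these counts per gene. Of all 35116 windows of this length, 0.723% held GTTAATNAT, 9.05% TTGCNNAA and 3.23% TGTTTGC, and in the VTN window a TTGCNNAA match overlaps the TGTTTGC match. A match is a run of letters and was not tested as a binding site.

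Transcripts of the carrier proteins were lower in the miR-17 TuD arrays than in the NC TuD arrays wherever a change passed the test, and none rose. All values are the deposited log2 expression values, and a negative difference means lower in the miR-17 TuD arrays. Of 12 probe sets tested, 7 fell, for 5 genes (ALB, TTR, RBP4, AHSG and ITIH2), none rose and 5 did not pass. Each of these falls was modest, from 0.10 to 0.47 on the log2 scale, so the miR-17 TuD arrays stood between 72.3% and 93.2% of the NC TuD level.

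Groups were compared in limma across all 32768 probe sets above a low-value filter, with Benjamini-Hochberg adjustment over all of them and a threshold of 0.05. Of all probe sets tested, 5.83% passed, 2.48% fell and 3.35% rose, and among the 3408 with a mean above 12 the shares were 4.46% and 8.13%. The 8 carrier protein probe sets above a mean of 12 held all 7 falls. The median difference of the 12 probe sets was -0.20, against 0 over all probe sets tested. At an unadjusted p under 0.05, 9 of the 12 were lower and 0 higher in limma. Of all 32768 probe sets, 7239 were under that unadjusted threshold in either direction. Each array was also dropped in turn. Dropping miR-17 TuD replicates 1, 2 and 3 gave 4, 2 and 3 falls. Dropping any NC TuD array gave 1, that of AHSG on 204551_s_at, which passed in all 6 fits.

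**Figure D1:**
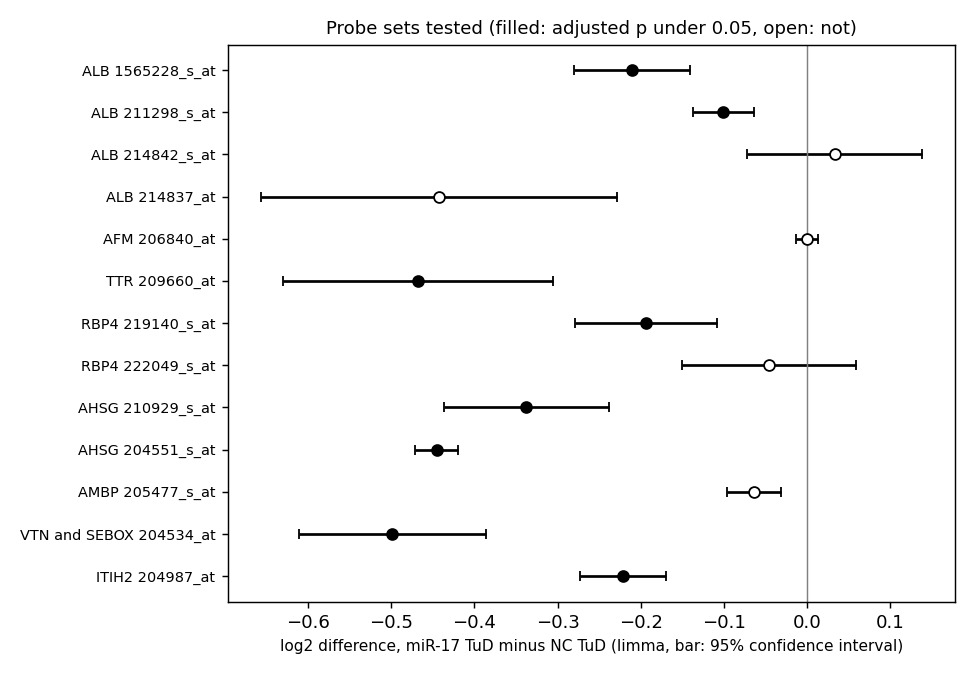
Log2 difference, miR-17 TuD minus NC TuD, for each probe set that passed the low-value filter, with the 95% confidence interval from limma (3 arrays a group). Filled points passed the adjusted threshold of 0.05. The intervals of TTR, AHSG, ITIH2, AMBP, RBP4 on 219140_s_at, the VTN and SEBOX probe set and 3 of the 4 ALB probe sets lie below 0. Those of AFM, RBP4 on 222049_s_at and ALB on 214842_s_at include 0.

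ALB was read by 4 probe sets that did not give 1 answer. On 1565228_s_at the values were 15.97, 16.02 and 15.96 in miR-17 TuD arrays and 16.16, 16.19 and 16.23 in NC TuD arrays, and on 211298_s_at 15.74, 15.70 and 15.72 against 15.82, 15.82 and 15.82. Every miR-17 TuD array lay below every NC TuD array on both. The difference was -0.21 on the first (SE 0.026, adjusted p = 0.0266 in limma), a 1.16-fold fall, and -0.10 on the second (SE 0.014, adjusted p = 0.0319), a 1.07-fold fall. Neither call was firm. The first was lost on dropping any of the 6 arrays (adjusted p from 0.0522 to 0.107) and with quantile normalization (-0.11, adjusted p = 0.269). The second was lost on dropping any array but miR-17 TuD replicate 1 (adjusted p up to 0.12). It was also lost in limma with quantile normalization (-0.085, adjusted p = 0.132), median centring (-0.079, adjusted p = 0.206) and a stricter filter (adjusted p = 0.0697). With no filter on low values both calls were lost (adjusted p = 0.0652 and 0.0704).

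Both of these probe sets lay within 1 log2 unit of the highest value on their array, which ran from 16.26 to 16.32. Among 54613 probe sets, 1565228_s_at stood at rank 5, 2 and 4 in the miR-17 TuD arrays and rank 2 in each NC TuD array. The second, 211298_s_at, stood at ranks 13, 15 and 14 against 12, 12 and 10. Differences were narrow in this range for all genes. The 97 probe sets within 1 unit of the highest value on any array spanned -0.21 to 0.13, with a median absolute difference of 0.023, and ALB on 1565228_s_at was the lowest of them. Of the 97, 4 fell and 1 rose, so a share of 4.12% fell. That share includes both of these ALB probe sets, and the other falls were APOA2 and CD24.

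Lower on the scale, the other ALB probe sets differed from each other. On 214837_at the values were 8.46, 8.32 and 8.32 in miR-17 TuD arrays against 8.94, 8.79 and 8.69 in NC TuD arrays, with no overlap. The difference of -0.44 (SE 0.081) narrowly missed the threshold (adjusted p = 0.0545 in limma) and passed it with quantile normalization, median centring or the stricter filter. On 214842_s_at the values were 11.12, 11.13 and 11.23 against 11.14, 11.15 and 11.08, and the groups overlapped. That difference was 0.033, with a 95% interval of -0.073 to 0.14.

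The gap between these readings was examined within arrays. The difference between 214837_at and 214842_s_at, taken on each array, was 0.48 lower in the miR-17 TuD arrays, and the groups did not overlap (2-sided exact permutation test, p = 0.1, the smallest that 3 against 3 arrays allow). Over the 7 pairs of probe sets compared for ALB and AHSG, p was 0.1 in 6 and 0.2 in 1, and the adjusted values ran from 0.117 to 0.2. With such groups no pair could pass a threshold of 0.05.

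**Figure D2:**
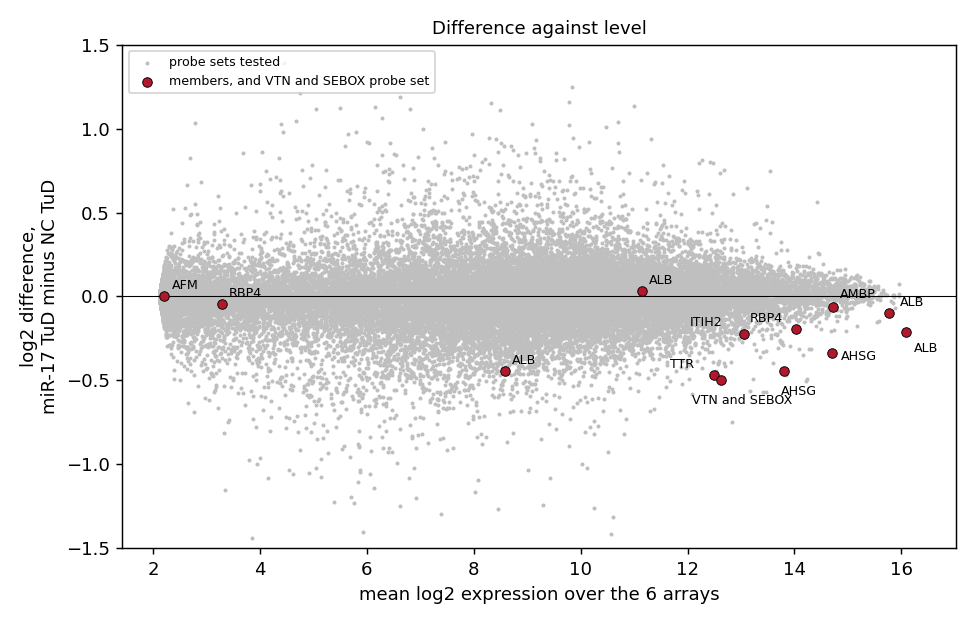
Log2 difference, miR-17 TuD minus NC TuD, against the mean log2 expression of all 32768 probe sets tested (grey, 8 beyond the drawn range) and of the carrier protein probe sets (red). The 7 falls lie at means above 12, and the ALB pair at the right edge lies where the grey points narrow towards 0.

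AFM lies next to AFP on chromosome 4, where RefSeq gives the order ALB, AFP, AFM. Its 1 probe set read 2.21 on all 6 arrays, close to the lowest value of the scale (2.12), so no level of afamin RNA could be compared. It passed the low-value filter, whose cutoff was 2.14. AFP, the fetal member of the family, stood at 8.03, 7.86 and 7.55 in miR-17 TuD arrays against 9.01, 9.13 and 9.11 in NC TuD arrays.

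The thyroxine and retinol carriers both fell. TTR, which encodes transthyretin, stood at 12.27, 12.14 and 12.35 in miR-17 TuD arrays and 12.75, 12.67 and 12.75 in NC TuD arrays. The difference of -0.47 (SE 0.062, adjusted p = 0.0296 in limma) was a 1.38-fold fall, the largest among the carrier protein probe sets with 1 gene symbol. The arrays of the miR-17 TuD group spread more than those of the NC TuD group (SD 0.11 against 0.042), but no array of one group reached the other. The TTR call was lost on dropping any NC TuD array or replicate 1 of the miR-17 TuD group, with adjusted p up to 0.111.

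RBP4, the retinol carrier that circulates bound to transthyretin, stood at 13.93, 13.90 and 13.99 in miR-17 TuD arrays and 14.15, 14.09 and 14.16 in NC TuD arrays on 219140_s_at. The difference was -0.19 (SE 0.032, adjusted p = 0.0457 in limma), a 1.14-fold fall with no overlap. Dropping any of the 6 arrays lost that call, with adjusted p from 0.0524 to 0.149. With both RBP4 probe sets averaged, the difference was -0.12 (adjusted p = 0.0791). The second RBP4 probe set, 222049_s_at, lay near the bottom of the scale at 3.26, 3.26 and 3.26 against 3.26, 3.26 and 3.39, and it did not pass (-0.046, adjusted p = 0.566).

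AHSG, which encodes fetuin-A, was lower on both of its probe sets. On 204551_s_at the values were 13.59, 13.58 and 13.58 in miR-17 TuD arrays and 14.02, 14.04 and 14.04 in NC TuD arrays. The gap between the nearest arrays, 0.42, was many times the SD within either group (0.0072 and 0.014). The difference was -0.45 (SE 0.0099, adjusted p = 0.00436 in limma), a 1.36-fold fall. On 210929_s_at the values were 14.47, 14.58 and 14.54 against 14.82, 14.89 and 14.89, a difference of -0.34 (SE 0.038, adjusted p = 0.0219), or 1.26-fold lower. That second call held on dropping miR-17 TuD replicate 1 and was lost on dropping any other array (adjusted p up to 0.0974).

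Among the inter-alpha-inhibitor chains, the heavy chain gene ITIH2 fell. It stood at 12.93, 12.94 and 12.98 in miR-17 TuD arrays and 13.16, 13.20 and 13.15 in NC TuD arrays, with no overlap. The difference was -0.22 (SE 0.02, adjusted p = 0.0154 in limma), a 1.17-fold fall, and it held on dropping miR-17 TuD replicate 1 or 3 but not another array (adjusted p up to 0.0683). The paired heavy chain gene ITIH1 was at the lowest value on all 6 arrays. ITIH3 and ITIH4, family members named here for their kinship and not by a rule, also lay near the bottom, at a mean of 2.18 in both groups and at 2.23 against 2.19.

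AMBP, the source of bikunin, hardly differed. On 205477_s_at it stood at 14.68, 14.67 and 14.70 in miR-17 TuD arrays and 14.74, 14.73 and 14.76 in NC TuD arrays. The groups did not overlap, but the difference was only -0.064 (SE 0.012) and did not pass among probe sets (adjusted p = 0.0593 in limma). With 1 probe set per gene, and so fewer tests, it passed (adjusted p = 0.0456), and dropping any of the 6 arrays lost that call. The second AMBP probe set was at the lowest value on all arrays.

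The probe set annotated to VTN and SEBOX, 204534_at, stood at 12.34, 12.33 and 12.47 in miR-17 TuD arrays and 12.87, 12.89 and 12.87 in NC TuD arrays. It was 1.41-fold lower (-0.50, SE 0.043, adjusted p = 0.0149 in limma) with no overlap. Dropping any NC TuD array lost the call (adjusted p up to 0.0698). Its partner, 234256_at, was at the lowest value on all 6 arrays. Which of the 2 genes the signal belongs to was not tested.

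**Figure D3:**
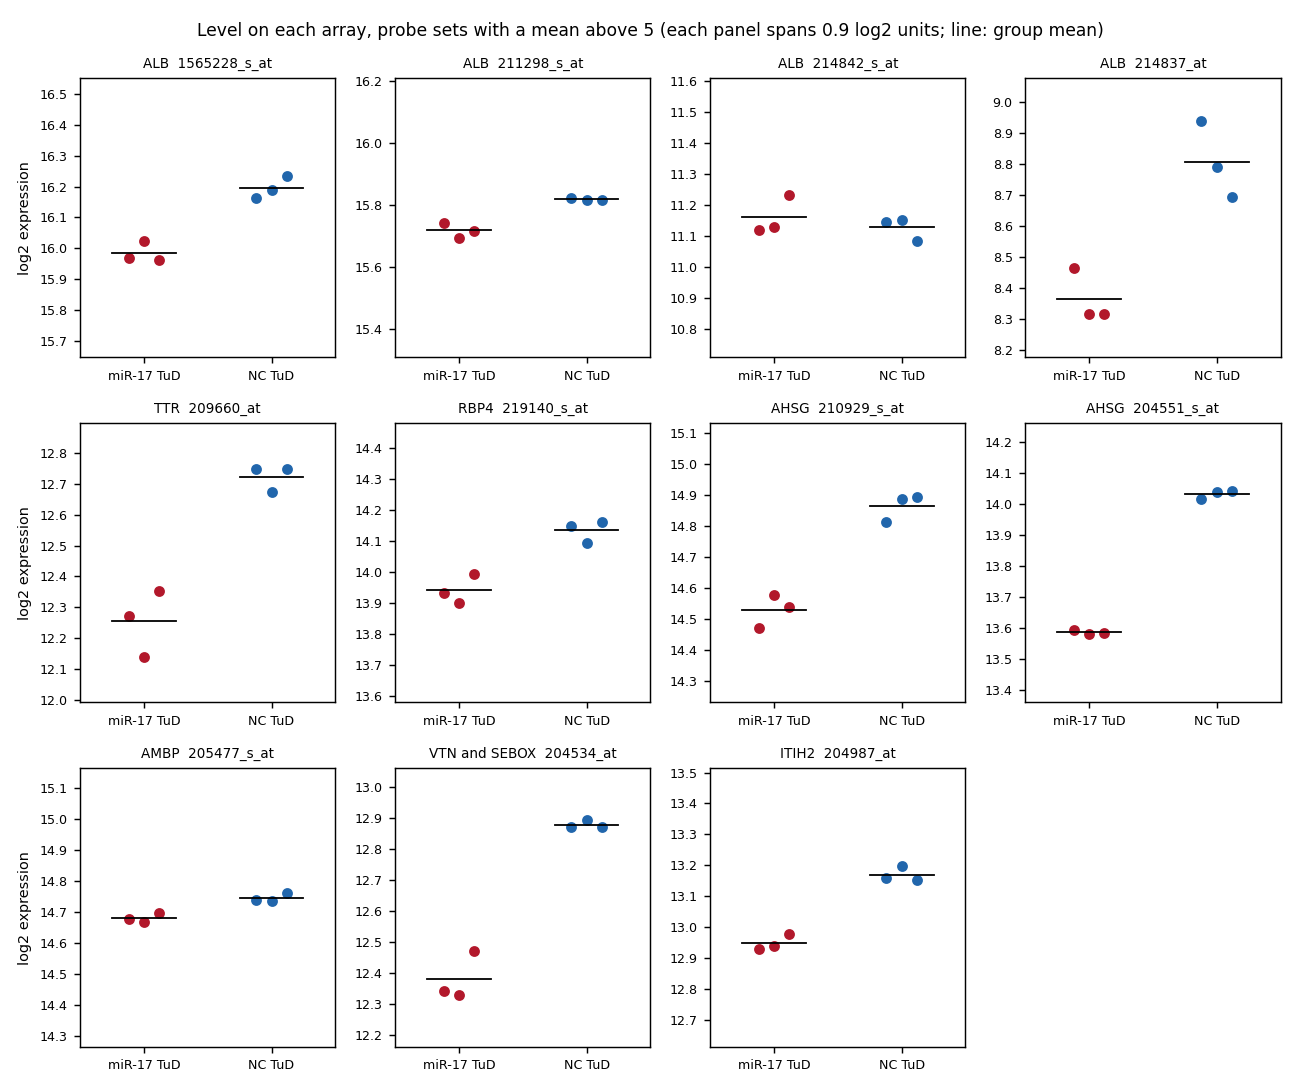
Log2 expression on each of the 3 miR-17 TuD arrays (red, left) and 3 NC TuD arrays (blue, right) for the probe sets with a mean above 5, each panel spanning 0.9 log2 units, with lines at group means. The groups are separate in every panel but ALB on 214842_s_at, where miR-17 TuD values of 11.12 to 11.23 overlap NC TuD values of 11.08 to 11.15.

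Taken per gene, with the probe set of highest mean standing for each, 6 of 7 tested genes fell (ALB, TTR, RBP4, AHSG, AMBP and ITIH2), AFM did not differ between arrays and none rose. Over 13949 genes, 11.4% passed, 4.6% fell and 6.78% rose in limma. Among genes with a mean above 12, 17.9% passed and 6.53% fell, and the 6 carrier genes at that level were the 6 that fell. At an unadjusted p under 0.05 in limma the carrier genes again gave 6 lower and 0 higher. Of all 13949 genes, 3880 were under that unadjusted threshold in either direction. Dropping miR-17 TuD replicates 1, 2 and 3 gave 2, 4 and 5 falls, and dropping those of the NC TuD group gave 2, 1 and 1. ITIH2 passed in all 6 cases, with adjusted p from 0.0192 to 0.0466. Groups did not overlap for 9 of the 12 probe sets, all with the miR-17 TuD arrays below, a pattern found in 13.6% of all probe sets tested. Per gene it held for 6 of 7, against 14.7% of all genes with miR-17 TuD below and 18.3% with it above.

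Within the miR-17 TuD group, replicate 2 was the lowest array for 7 of the 12 probe sets and replicate 3 the highest for 6. Within the NC TuD group each array was the lowest for 4, where AFM, equal on all 3 arrays, was counted for replicate 1. The median deviation from the group mean was at most 0.013 in size on any array.

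The hepatocyte identity of the line was checked on 10 other liver genes, 4 of them (AFP, APOH, SERPINA1 and TF) also on the list of other carriers described further on. A probe set with 1 symbol was found for 9. Of the 9, 8 fell, APOA2, APOB, APOC1, APOH, FGA, FGG, TF and AFP. The ninth, SERPINA1, was higher without passing (0.13, adjusted p = 0.0912 in limma), with 15.17, 15.29 and 15.22 in miR-17 TuD arrays against 15.08, 15.11 and 15.12 in NC TuD arrays and no overlap. The summed level of all 9 on the log2 scale ran from 16.93 to 16.95 in miR-17 TuD arrays and from 17.14 to 17.16 in NC TuD arrays. The summed level therefore moved with the carrier proteins, and its part in their falls was not tested. In bulk RNA, fewer cells that express a gene and less of its RNA per cell cannot be told apart. All 6 endothelial markers and all 4 leukocyte or Kupffer cell markers with a probe set were within 0.5 of the lowest value on every array. The summed level was 15.82 to 15.90 against 15.87 to 15.90 for cholangiocyte markers, which include EPCAM and KRT19. For fibroblast markers it was 12.91 to 13.41 against 12.85 to 12.89, with COL3A1 and DCN at the bottom of the scale. Correlation across probe sets was 0.9989 to 0.9993 within a group and 0.9977 to 0.9984 between groups. The 3′ minus 5′ difference of the beta-actin control was 0.679 to 0.684 against 0.692 to 0.712, and that of the GAPDH control was -0.257 to -0.238 against -0.254 to -0.249.

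The genes around the carriers were described from 7 lists, 149 genes of which 121 were tested. Of these, 24 (19.8%) fell and 3 rose in the fit with 1 probe set per gene, where 4.6% of all genes fell and 6.78% rose. Their median difference was -0.029, against 0.00056 over all genes. Dropping miR-17 TuD replicates 1, 2 and 3 gave 15, 11 and 22 falls, and dropping NC TuD replicates 1, 2 and 3 gave 4, 4 and 7. Among other liver carrier and plasma proteins, 8 of 21 fell and none rose, with a median of -0.056. Without s_at and x_at probe sets, 4 of 16 on this list fell and 1 rose. With median centring, or with the probe sets of a gene averaged, 1 also rose. The largest falls were AFP (-1.27), the heme carrier HPX (-0.82), the lipid carrier APOM (-0.52) and the iron carrier TF (-0.49). TF stood at 13.98, 13.97 and 14.03 in miR-17 TuD arrays against 14.46, 14.49 and 14.50 in NC TuD arrays (SE 0.021, adjusted p = 0.00338 in limma). AFP, HPX and APOM each lost their call on dropping any NC TuD array (adjusted p up to 0.0615, 0.0685 and 0.0805), HPX also on dropping miR-17 TuD replicate 2, and TF kept it throughout. On a TF probe set without the s_at suffix the difference was -0.088 (adjusted p = 0.346).

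Regulators of liver genes of the albumin type fell in 5 of 20 and rose in none, with a median of -0.072. The 4 largest falls were ONECUT1 (-0.46), PROX1 (-0.39), NFIL3 (-0.33) and NR5A2 (-0.28). NFIL3, a leucine zipper repressor, stood at 11.82, 11.75 and 11.87 in miR-17 TuD arrays against 12.13, 12.17 and 12.14 in NC TuD arrays (adjusted p = 0.0127 in limma). Dropping any NC TuD array lost its call (adjusted p up to 0.0619). ONECUT1 lost its own on dropping NC TuD replicate 1 or 2 (up to 0.0536), NR5A2 on dropping any array but miR-17 TuD replicate 2, and PROX1 on dropping any array or the s_at and x_at probe sets (adjusted p = 0.0529). With its probe sets averaged, NR5A2 stood at -0.45 (adjusted p = 0.00946). The list gave 2, 3 and 4 falls on dropping miR-17 TuD arrays 1, 2 and 3 and 0, 0 and 1 on dropping those of the NC TuD group.

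Partners of the retinol and thyroid hormone carriers fell in 2 of 12. SLC16A10, a membrane transporter of aromatic amino acids and thyroid hormones, was 1.58-fold lower (8.72 ± 0.12 against 9.38 ± 0.03, SD, n = 3, adjusted p = 0.0105 in limma). That call was lost on dropping NC TuD replicate 1 or 2 (adjusted p up to 0.054). The choice of probe set moved the value further, to -1.44 without s_at and x_at probe sets, where the call was lost (adjusted p = 0.0515), and to -0.93 with the probe sets averaged (adjusted p = 0.0148). THRB, a nuclear receptor for thyroid hormone, differed by -0.59 (8.05 ± 0.12 against 8.64 ± 0.13, SD, n = 3). Its adjusted p in limma was 0.0289, and dropping any array lost the call. With its probe sets averaged, THRB stood at -0.30 (adjusted p = 0.03). Of 8 vitamin D partners 1 fell, the 25-hydroxylase CYP2R1 (-0.18, adjusted p = 0.0424), which among the single-array drops held only on that of miR-17 TuD replicate 3. Its call was also lost with its probe sets averaged (-0.16, adjusted p = 0.154) and with s_at and x_at probe sets removed (adjusted p = 0.0511).

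Hyaluronan and inter-alpha-inhibitor partners rose in 2 of 12 and fell in none. Both that rose are hyaluronan synthases. HAS3 stood at 10.23, 10.33 and 10.56 in miR-17 TuD arrays against 9.73, 9.72 and 9.72 in NC TuD arrays, 1.57-fold higher (0.65, SE 0.091, adjusted p = 0.0215 in limma). HAS2 stood at 5.63, 5.74 and 6.04 against 5.02, 5.08 and 5.24, 1.62-fold higher (0.69, SE 0.13, adjusted p = 0.0392). All 3 miR-17 TuD arrays lay above all NC TuD arrays for both synthases. HAS3 lost its call on dropping any NC TuD array or replicate 2 of the miR-17 TuD group (adjusted p up to 0.0873). HAS2 kept its own only on dropping miR-17 TuD replicate 3 (adjusted p up to 0.137). Averaging the probe sets of a gene gave 0.44 for HAS2 and 0.32 for HAS3.

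Among partners of vitronectin and fetuin-A, 3 of 13 fell and none rose. The secreted chaperone CLU stood at 13.13, 13.19 and 13.21 in miR-17 TuD arrays against 13.74, 13.72 and 13.77 in NC TuD arrays, 1.48-fold lower (-0.57, SE 0.026, adjusted p = 0.00338 in limma), and passed whichever array was dropped. The insulin receptor INSR (-0.34) and ASGR2 (-0.14), a subunit of the hepatic receptor that takes up desialylated glycoproteins, also fell. Both held on dropping miR-17 TuD replicate 1 or 3 and on no other drop. INSR also lost its call with its probe sets averaged (-0.25, adjusted p = 0.0694) and with s_at and x_at probe sets removed (-0.27, adjusted p = 0.279). Of 35 genes of the early secretory pathway, through which all carrier proteins leave the cell, 5 fell and 1 rose, with a median of -0.016. The disulfide isomerase PDIA3 (-0.21, or -0.058 with its probe sets averaged), the translocation factor SEC63 (-0.18) and the vesicle GTPase SAR1A (-0.18, or -0.099 with its probe sets averaged) fell. PDIA3 lost its call with its probe sets averaged. SAR1A lost its own on dropping any array (adjusted p from 0.0501 to 0.0982 in limma). SEC63 lost its call with its probe sets averaged (-0.20, adjusted p = 0.12) and with s_at and x_at probe sets removed (-0.16, adjusted p = 0.287). The chaperone CALR rose by 0.15 on an x_at probe set and differed by 0.00083 (adjusted p = 1) on one without that suffix. Dropping replicate 2 of either group or replicate 1 of the NC TuD group lost every call on this list.

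**Figure D4:**
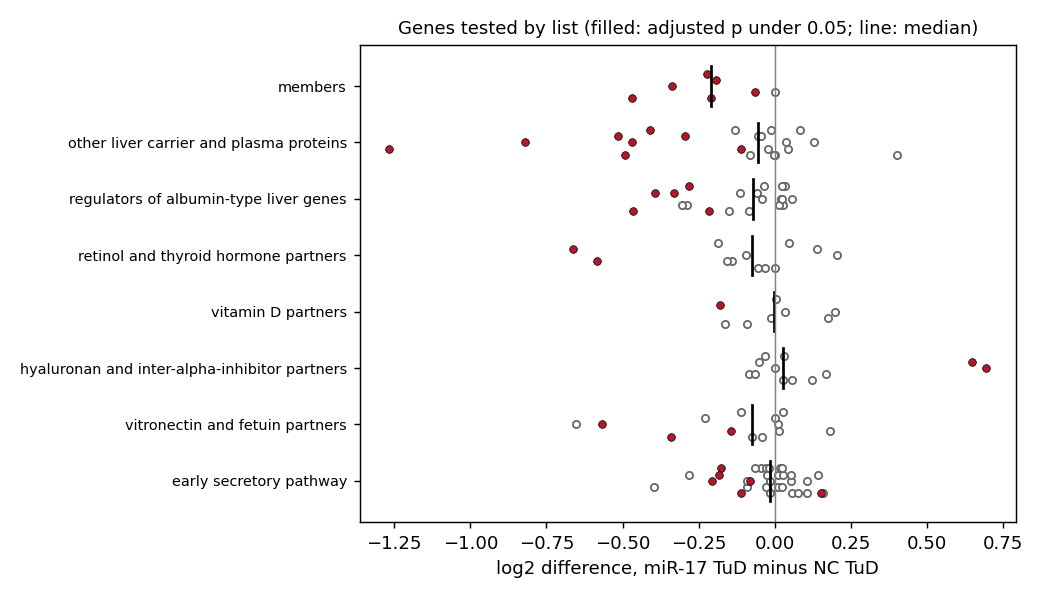
Log2 difference, miR-17 TuD minus NC TuD, of each gene tested in the fit with 1 probe set per gene, by list, with a line at the list median (-0.21 for the carrier proteins at the top). Filled points passed the adjusted threshold of 0.05. Of the carrier protein genes 6 of 7 are filled and to the left of 0, and the 2 filled points furthest right are HAS2 and HAS3.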

How the data were processed

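Hep3B RNA was measured on 6 Affymetrix HG-U133 Plus 2 arrays, 3 per group. The authors deposited 1 log2 value per probe set and array, and RMA and GCRMA are named, without role or version, per the submitters' processing notes. The files name no genome build and hold no detection calls, and the number of arrays limits the precision. The deposited values have a floor of 2.12, where changes of weak signals cannot be seen, and differences near the top of the scale were narrow. The cause of that narrowness was not tested. Tests excluded 62 control probe sets. The platform annotation from GEO gave 1 symbol to 41091 probe sets, several to 1801 and none to 11721, and symbols were updated through Entrez identifiers against GRCh38.p14 genes. Probe sets with a mean above the 40th percentile (2.14) were tested with limma 3.58.1 in R 4.3.3 (lmFit, eBayes, 2-sided), with Benjamini-Hochberg adjustment, and the genes likewise with 1 probe set each. The fit was tested on simulated data. The members and lists were chosen with earlier results of these data known. Named were all members and up to 4 genes past the threshold with the largest difference in each list. ITIH3, ITIH4 and the cell type markers are named outside that rule. Alternatives covered scaling, filter, variance model, array weights, replicate number, choice of probe set and leaving out each array.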

Additional observations from a re-analysis of the deposited data

How the results depend on the processing

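Under every alternative tried, no carrier protein probe set or gene rose past the threshold. Of the 7 falls among probe sets, 2 were left with no filter on low values and 0 with the replicate block in limma, where all 32768 probe sets gave 0 calls and 7488 had an unadjusted p under 0.05, 9 of them carrier protein probe sets. Leaving out 1 array gave 1 to 4. Of the 6 falls among genes, 3 were left with the replicate block, 3 of the 4 genes still measured when s_at and x_at probe sets were removed, and 1 to 5 with 1 array left out. The labels do not say what arrays with the same replicate number share. Same-numbered deviations correlated at 0.040, 0.10 and 0.11, and all 3 miR-17 TuD arrays correlated best with the NC TuD array of their number. Whether such arrays share a batch or a culture was not tested. In the 7 lists, 24 falls became 15 with no filter, 11 with the replicate block, 14 without s_at and x_at probe sets and 4 to 22 with 1 array left out. The 3 rises became 5 with median centring, 1 with no filter, 1 with the replicate block and 0 to 3 with 1 array left out. ALB on 1565228_s_at stood at -0.11 with quantile normalization (adjusted p = 0.269), and ALB on 214842_s_at ran from -0.0038 (without miR-17 TuD replicate 3) to 0.054 with 1 array left out and stood at 0.055 with median centring. Over all probe sets the 1910 calls became 554 with no filter, 3271 with the 60th percentile filter, 2930 with median centring and 145 to 1155 with 1 array left out. Over genes the 1588 became 789 with no filter, 822 with the replicate block, 927 without s_at and x_at probe sets and 374 to 1243 with 1 array left out. The cause of these shifts was not tested.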
